A study of Homo sapiens with 6 samples.

Results

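Expression of the genes that carry glucose to lactate, or divert it into the pentose phosphate pathway, was compared between endometrial cancer cells cultured with and without a progestin. A list of 32 genes was followed: the glucose carriers, the enzymes of glycolysis, the PFKFB enzymes that tune it, the lactate step, the pentose phosphate pathway and 3 enzymes of gluconeogenesis. For each gene, the brightest probe set over the 6 arrays was taken from those that the annotation gives to this gene alone (PKM also under its older symbol PKM2), which gave 30 of the 32 members among 19775 genes. The lactate carriers SLC16A1 and SLC16A3 had no such probe set and were not analysed here. The cells were IKPRAB-36, one line of Ishikawa endometrial cancer cells that stably carries transfected progesterone receptors A and B and is kept under hygromycin and neomycin. In the MPA group (3 arrays, MPA 1 to 3) they were cultured with 1 nM medroxyprogesterone acetate (MPA), a synthetic progestin, for 48 h. In the control group (3 arrays, control 1 to 3) the same line was cultured for 48 h without it, and both groups were grown in medium with charcoal-stripped serum, which is depleted of steroids. RNA was hybridized to Affymetrix U133 Plus 2.0 arrays, and every value is a signal or a difference of signals on the log2 scale, so that a difference of 1 is a doubling.

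Glycolysis splits glucose into pyruvate in the cytosol. Hexokinase traps glucose as glucose 6-phosphate, phosphofructokinase makes the committed step, aldolase splits the sugar, and the enzymes of the lower part yield ATP. Lactate dehydrogenase turns pyruvate into lactate and returns NAD+, while the pyruvate dehydrogenase complex uses pyruvate inside the mitochondria. The pentose phosphate pathway branches off at glucose 6-phosphate and gives NADPH and ribose for nucleotides. Many glycolytic enzymes exist as isoenzymes from separate genes, and the hypoxia-inducible factor (HIF) is a well known activator of several of them. In the endometrium, progesterone acts through its receptors, which are ligand-activated transcription factors, and its glands store glycogen in the phase in which progesterone is high.

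Markers of the labelled cell type were present in part. PAX8 and EMX2, which mark Mullerian epithelium, had group means of 10.13 to 10.77. PGR averaged 10.7 in MPA cells and 10.22 in control cells, but the line carries transfected receptors, so that this signal says nothing of identity. The estrogen receptor gene ESR1 lay little above the array medians, at 5.74 in MPA cells and 5.79 in control cells, and SOX17, another Mullerian factor, lay at 3.37 in MPA cells and 3.3 in control cells, under the array medians. None of 7 epithelial, 5 Mullerian and endometrial and 12 stromal, endothelial and blood markers passed the test in either direction. Of these 12, 6 lay under the median of every array. DCN, PECAM1, CD3E and HBB lay above the medians, with group means of 5.38 to 6.38. So did the collagen genes COL1A1 (8.17 in MPA cells, 8.97 in control cells) and COL3A1 (9.96 in MPA cells, 10.49 in control cells). The array medians were 5.16 to 5.283 and replicate arrays correlated at 0.987 to 0.997. The probe sets for the added poly-A controls averaged 6.194 on MPA 3, against 7.5 to 8.229 on the other arrays. Among the members, MPA 3 was the highest MPA array for 23 of 30 genes (76.7%, against 58.9% of all genes), MPA 2 the lowest MPA array for 24 (80.0%, against 47.5%) and control 2 the lowest control array for 22 (73.3%, against 47.9%). The part of these arrays in the results was not tested beyond leaving out each array in turn. The sources give n = 3 for the culture with or without MPA and do not say more on whether the cultures were separate, and the p-values cover only the variation among the 3 arrays of a group.

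MPA raised 4 members: ALDOC, HK2, PFKFB4 and LDHA. Each is one of several isoenzymes of its kind, and they act at 4 separate points: the trapping of glucose (HK2), the control of phosphofructokinase (PFKFB4), the splitting of the sugar (ALDOC) and the formation of lactate (LDHA). No member was lower. A member was called at an adjusted p under 0.05 (limma with Benjamini-Hochberg adjustment over 54613 probe sets) and a difference of at least 0.322 on the log2 scale, the fold minimum of the study's methods. The share called higher was 4 of 30 members, against 1.74% of all genes and 2.48% of the genes at or above the median signal. The share called lower was 0 of 30 members, against 1.16% of all genes and 1.67% of those at or above the median signal. Of the single probe sets, 1.21% passed in the upward and 0.813% in the downward direction. By the SAM test of the study's methods 6 members were higher and 0 lower, against 3.1% and 2.13% of all genes. At an unadjusted p under 0.05 there were 15 of 30 members, against 11.8% of all genes. All MPA arrays lay above all control arrays in 15 of 30 members and below them in 2, against 8.96% and 7.98% of all genes. The shares for SAM, unadjusted p and overlap include dim genes, whereas 29 of the 30 members lay above the median on every array. For these no share among genes of like signal was computed.

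The 250 bases before the start of these 4 genes are shown because these members were called in the same direction and HIF sites are known from glycolytic promoters. They are RefSeq sequences of build GRCh38.p14, written on the strand of the gene with its start just after the last base, and capitals mark the HIF core (ACGTG or GCGTG, on either strand).
ALDOC (chr17:28576896-28577145, minus strand): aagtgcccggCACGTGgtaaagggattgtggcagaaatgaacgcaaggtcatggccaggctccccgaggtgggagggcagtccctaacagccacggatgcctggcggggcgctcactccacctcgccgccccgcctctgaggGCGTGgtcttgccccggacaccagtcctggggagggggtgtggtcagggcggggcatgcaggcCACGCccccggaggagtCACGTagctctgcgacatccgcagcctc
HK2 (chr2:74833877-74834126, plus strand): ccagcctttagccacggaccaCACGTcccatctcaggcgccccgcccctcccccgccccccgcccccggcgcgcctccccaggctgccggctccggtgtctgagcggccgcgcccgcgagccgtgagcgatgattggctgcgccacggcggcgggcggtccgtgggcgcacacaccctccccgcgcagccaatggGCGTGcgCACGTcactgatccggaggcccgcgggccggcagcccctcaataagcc
PFKFB4 (chr3:48556804-48557053, minus strand): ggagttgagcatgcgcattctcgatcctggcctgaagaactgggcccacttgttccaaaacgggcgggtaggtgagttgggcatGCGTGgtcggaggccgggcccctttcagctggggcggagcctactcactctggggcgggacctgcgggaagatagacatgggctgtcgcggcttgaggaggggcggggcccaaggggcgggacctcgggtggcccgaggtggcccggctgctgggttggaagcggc
LDHA (chr11:18394313-18394562, plus strand): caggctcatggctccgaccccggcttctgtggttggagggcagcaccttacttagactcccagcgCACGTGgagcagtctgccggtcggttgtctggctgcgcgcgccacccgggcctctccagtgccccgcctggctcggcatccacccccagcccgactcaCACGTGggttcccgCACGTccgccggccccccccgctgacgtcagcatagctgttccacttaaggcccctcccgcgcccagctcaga

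The HIF core was found in all 4 of these windows and in 12 of the 24 windows of members not called. It was found in 43.1% of the 27305 promoter windows of the same length. For a gene with several starts in the promoter table, the most upstream start was used, also for the windows shown. Which start the cells used was not tested. The core holds a CG step and the windows shown were 68.0 to 76.8% G and C, against a median of 57.6% over all promoter windows. ALDOC and LDHA also hold CACGTG, the E-box, which reads as the core on both strands and was found in 6.46% of all windows. The half-site of the progesterone receptor (TGTTCT or TGTCCT, either strand) was not found in the 4 windows and was found in 5 of 28 member windows and in 23.8% of all windows. A match of so few letters is a description of the sequence and says nothing of binding. The members SLC2A3 and PFKFB2 had no entry in the promoter table.

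ALDOC, the aldolase isoenzyme first described in brain, had the largest difference of the members and the rank 92 among 19775 genes by increase. Its signals (probe set 202022_at) were 9.57, 9.37 and 9.76 on the MPA arrays, against 8.24, 7.72 and 8.25 on the control arrays. The groups lay more than 1 log2 unit apart at their nearest arrays, and the difference was 1.5 (SE 0.17, 2.82-fold, limma adjusted p = 0.00301). ALDOA, the aldolase of most tissues, had 13.44, 13.31 and 13.45 in MPA cells, against 13.25, 13.14 and 13.14 in control cells. Its groups did not overlap either, but the difference of 0.22 did not pass the test (adjusted p = 0.517).

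HK2, the inducible hexokinase that can bind to mitochondria, was 9.98, 9.87 and 10.03 in MPA cells, against 8.88, 8.90 and 8.70 in control cells (202934_at). The difference was 1.13 (SE 0.11, 2.19-fold, adjusted p = 0.00112 from limma), and the arrays of each group lay within a narrow band. The call rests on this probe set. A dimmer HK2 probe set (222305_at) had 6.47, 6.51 and 6.57 in MPA cells, against 6.81, 6.78 and 6.77 in control cells, a difference of -0.27 (adjusted p = 0.326). Another (239410_at) differed by -0.44 (adjusted p = 0.277), and the mean of all HK2 probe sets by 0.14 (adjusted p = 0.707), so that the probe sets of HK2 had differences of both signs. Where the dimmer probe sets lie in the gene was not analysed here. HK1, the hexokinase of most tissues, had 10.93, 10.82 and 11.31 in MPA cells, against 10.76, 10.49 and 10.73 in control cells. MPA 3 lay well above the other MPA arrays, and the difference of 0.37 did not pass the test (adjusted p = 0.445). HKDC1, a hexokinase-like enzyme outside the member list, went the other way from HK2, with 6.75, 6.68 and 7.02 in MPA cells, against 8.39, 8.36 and 8.33 in control cells (difference -1.54, SE 0.12, adjusted p = 0.000399; -0.93 over the mean of its probe sets, adjusted p = 0.00177).

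PFKFB4 is one of the bifunctional enzymes that make and remove the sugar bisphosphate which activates phosphofructokinase. Its signals (228499_at) were 7.77, 7.59 and 7.92 in MPA cells, against 7.14, 6.75 and 7.08 in control cells, a difference of 0.77 (SE 0.14, 1.71-fold, limma adjusted p = 0.0295). The second probe set of PFKFB4 (206246_at) differed by 0.32 (adjusted p = 0.527). PFKFB3, the form in which the kinase activity prevails, had 7.51, 7.37 and 7.51 in MPA cells, against 7.25, 7.04 and 7.16 in control cells (difference 0.31, adjusted p = 0.308). PFKFB2, the form known from heart, had 7.11, 6.83 and 6.85 in MPA cells, against 6.59, 6.69 and 6.72 in control cells (difference 0.27, adjusted p = 0.48). By the brightest probe set of all 3 enzymes every MPA array lay above every control array, which held for 8.96% of all genes. PFKFB4 alone passed the test. Among the dimmer probe sets, 206246_at of PFKFB4 overlapped between groups. So did 207931_s_at (difference -0.02) and 238450_at (0.03) of PFKFB2, while 209992_at of PFKFB2 (0.38) did not.

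LDHA, the lactate dehydrogenase subunit that favours the formation of lactate, had 13.38, 13.31 and 13.39 in MPA cells, against 12.81, 12.83 and 12.85 in control cells (200650_s_at). With the smallest spread of the 4, a difference of 0.53 passed the test (SE 0.09, 1.45-fold, limma adjusted p = 0.0273). LDHB, the subunit that favours the reverse reaction, had 12.91, 12.99 and 12.80 in MPA cells, against 12.84, 13.11 and 12.92 in control cells. Its groups overlapped, with a difference of -0.06 (SE 0.11).

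The calls of HK2 and ALDOC held whichever array was left out, with adjusted p-values of 0.00335 to 0.013 and of 0.00356 to 0.0252. PFKFB4 was called only without MPA 2 and LDHA only without MPA 3, and their adjusted p-values over the 6 omissions were 0.0462 to 0.141 and 0.0494 to 0.151. The number of members called higher was accordingly 2 without MPA 1 or any control array, and 3 without MPA 2 or MPA 3.

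**Figure D1:**
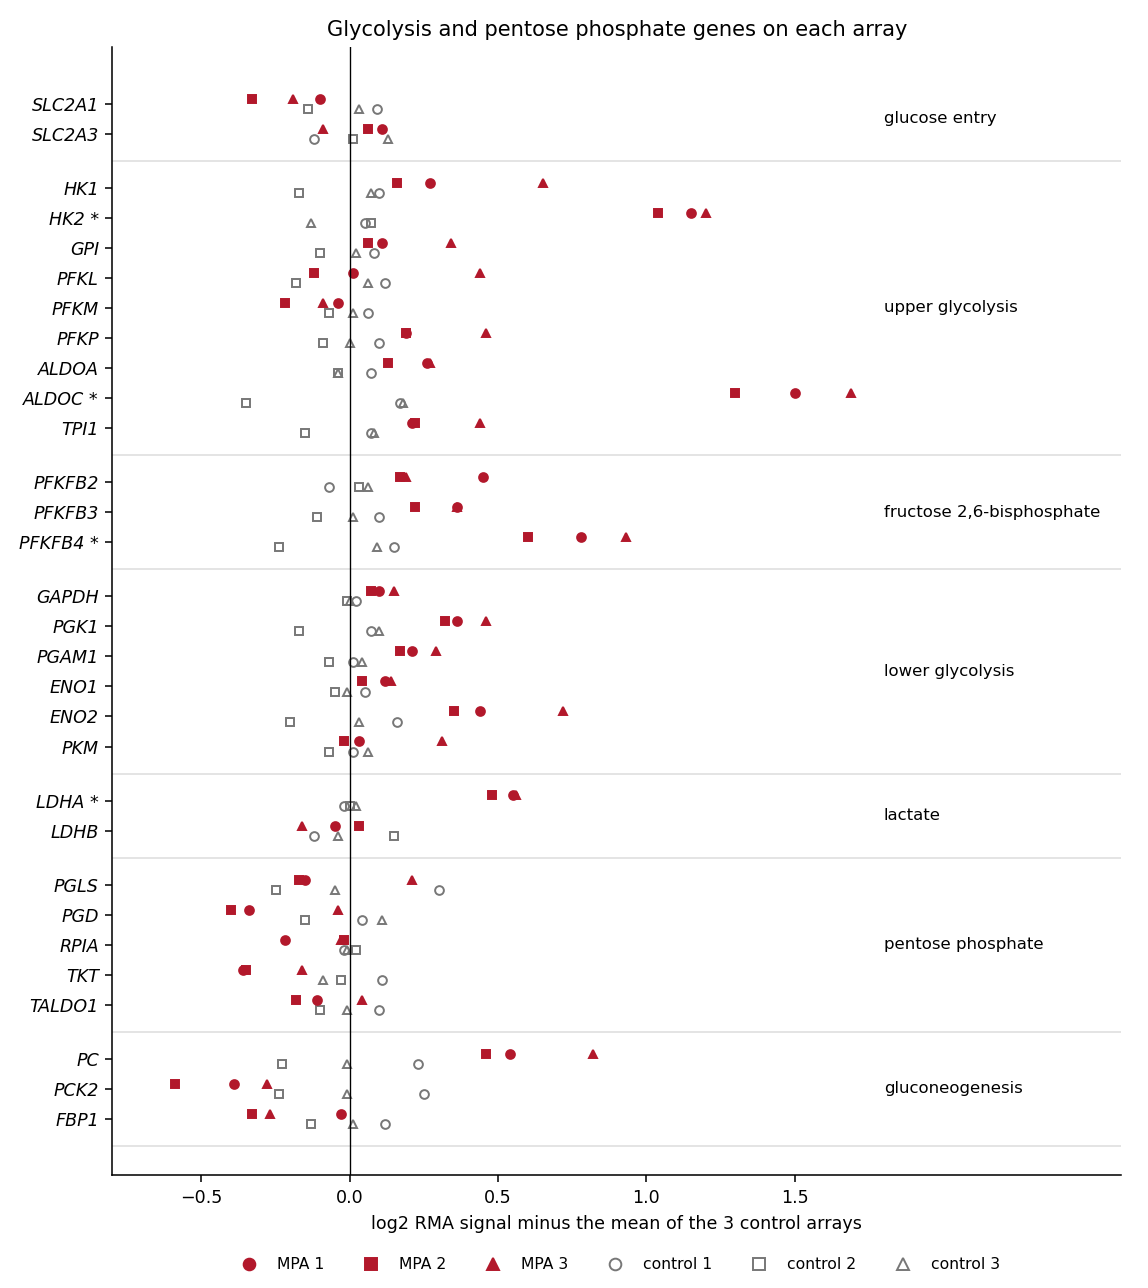
Signal of each measured member on each array, as the log2 signal minus the mean of the 3 control arrays, with MPA arrays in filled red and control arrays in open grey, grouped by role; asterisks mark the 4 members called by limma. ALDOC, HK2, PFKFB4 and LDHA lie clear of their controls, most other glycolytic members lie slightly to the right, and the mean of the MPA arrays lies left of zero in each of the 5 pentose phosphate members.

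Most other glycolytic members had small positive differences that did not pass the test. Of the 18 members from hexokinase to pyruvate kinase, the PFKFB enzymes included, 17 had a positive difference and 13 had all MPA arrays above all control arrays, against 55.3% and 8.96% of all genes. Their median difference was 0.27, against 0.02 over all genes. These values over all genes include dim genes, and none was computed for genes of like signal. Of these 18, HK2, ALDOC and PFKFB4 passed the test. Over 18 settings, the fit above included, 16 to 17 of the 18 were positive, with medians of 0.18 to 0.32. Without MPA 3 it was 16 with a median of 0.21. Settings that changed only the test or the threshold could not change any difference, so that their agreement was fixed in advance.

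Among the remaining members of the upper part, the phosphofructokinase genes differed from each other in sign. PFKP, the platelet form, had 11.04, 11.04 and 11.31 in MPA cells, against 10.95, 10.76 and 10.85 in control cells (difference 0.28, adjusted p = 0.458 from limma). Its dim second probe set, under the median of all arrays, differed by -0.22. PFKL, the liver form, and PFKM, the muscle form, overlapped between groups, with differences of 0.11 and -0.12. PFKM was the only glycolytic member with a negative difference. GPI, which isomerizes glucose 6-phosphate, also overlapped (difference 0.17, SE 0.12). TPI1, which interconverts the triose phosphates, had 12.44, 12.45 and 12.67 in MPA cells, against 12.30, 12.08 and 12.31 in control cells (difference 0.29, adjusted p = 0.421), so that its nearest arrays were close.

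In the lower part all 6 members had positive differences, of 0.10 to 0.50, and none passed the test. PGK1, the first ATP-yielding enzyme and a common reference gene, had 12.72, 12.68 and 12.82 in MPA cells, against 12.43, 12.19 and 12.46 in control cells (difference 0.38, SE 0.11, limma adjusted p = 0.214). PGK1 had 6 probe sets, all with positive differences, of 0.17 to 0.81, and it was called where the variance prior followed the intensity (adjusted p = 0.0438). ENO2, the neuronal enolase, had 7.85, 7.76 and 8.13 in MPA cells, against 7.57, 7.21 and 7.44 in control cells (difference 0.50, adjusted p = 0.172), and was called by SAM. ENO1, the enolase of most tissues, overlapped between groups (difference 0.10, SE 0.10). PGAM1, a phosphoglycerate mutase, had 12.90, 12.86 and 12.98 in MPA cells, against 12.70, 12.62 and 12.73 in control cells (difference 0.23, adjusted p = 0.476). PKM, pyruvate kinase, overlapped with a difference of 0.11, and its probe set was not assigned to a splice form.

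GAPDH, the usual reference gene for RNA amounts, had 14.05, 14.02 and 14.10 in MPA cells, against 13.97, 13.94 and 13.95 in control cells. All MPA arrays lay above all control arrays by a small step, with a difference of 0.10 (SE 0.09, limma adjusted p = 0.844). The SD over its own arrays was 0.04 in MPA cells and 0.02 in control cells. Its 3 probe sets differed by 0.10 to 0.11, and the 3 control probe sets for GAPDH that the manufacturer placed on the array by 0.11 to 0.14. The 10 measured housekeeping genes outside glycolysis differed by 0.0367 on average, from -0.16 to 0.32, with 5 positive and 5 negative differences. In 2 of them, ACTB (0.10) and TFRC (0.32), all MPA arrays also lay above all control arrays. The signals of GAPDH and ALDOA come from probe sets marked as able to bind related transcripts, as do those of LDHB and SLC2A3. Besides HK2 and PFKP, the members SLC2A3, PFKFB2, ENO1, PKM and PGD also had dimmer probe sets of the other sign, with differences of -0.15 to 0.20, none of them called.

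**Figure D2:**
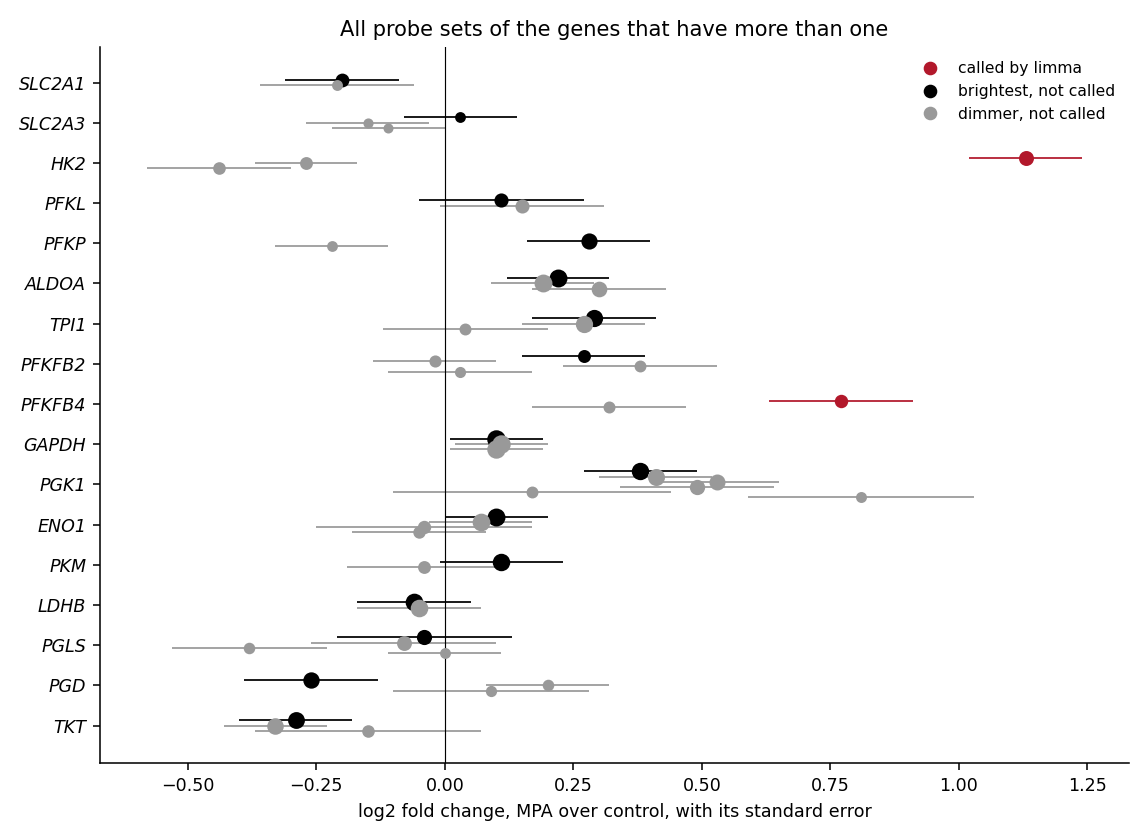
Log2 fold change of MPA over control with its standard error for every probe set of the members that have more than one, the larger points being the brighter probe sets and red those called by limma. The brightest HK2 probe set lies at 1.13 while the dimmer 2 lie at -0.27 and -0.44, and all 6 probe sets of PGK1 lie right of zero.

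The balance of signals between isoenzymes was compared for 5 pairs. The difference between the signals of 2 probe sets is no ratio of their transcripts, but its change between the groups can be measured. The change was 1.27 for ALDOC over ALDOA, 0.77 for HK2 over HK1, 2.67 for HK2 over HKDC1, 0.59 for LDHA over LDHB and 0.46 for PFKFB4 over PFKFB3. In each of these 5 pairs the 3 MPA arrays lay above the 3 control arrays. The pairs were chosen after the values were seen, and an exact permutation test of 3 against 3 arrays gave 0.1 for each (two-sided, 0.1 after adjustment over the 5 pairs), the smallest p it can give. The pairs with HK2 rest on its brightest probe set.

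**Figure D3:**
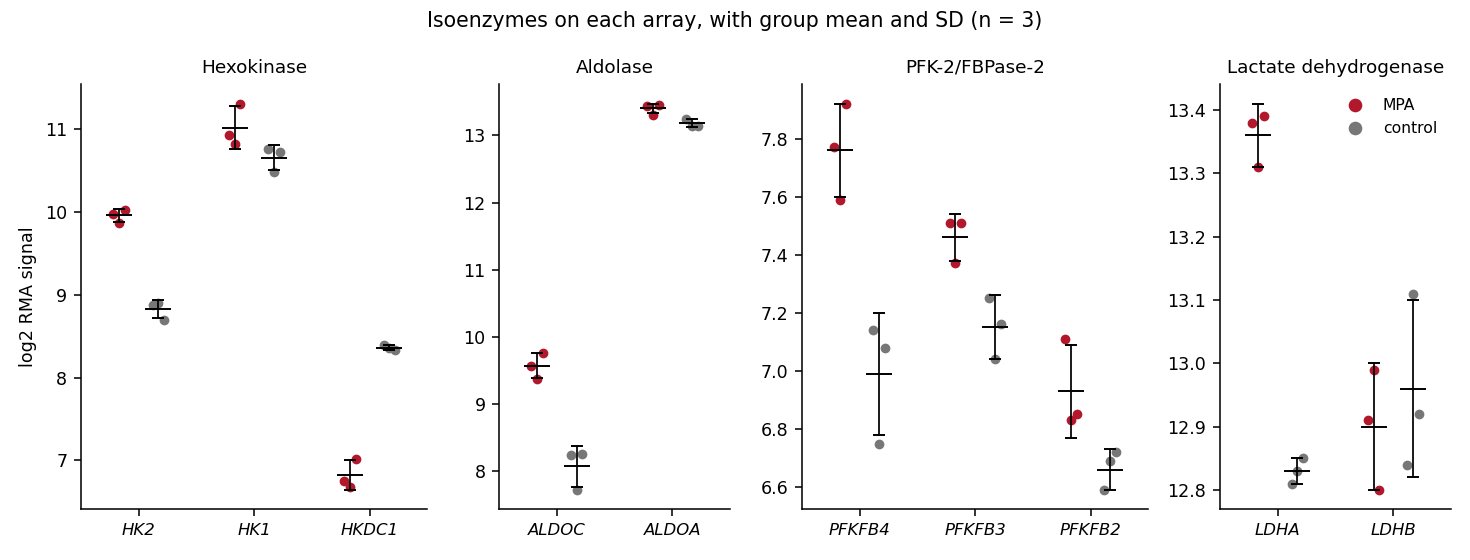
Log2 signals of isoenzyme genes on each array, MPA in red to the left of control in grey, with the group mean and SD (n = 3 arrays each); the vertical scales differ between panels, and heights of different genes cannot be compared as amounts. HK2, ALDOC, PFKFB4 and LDHA are higher with MPA, HKDC1 is lower, and LDHB overlaps.

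Neither member of glucose entry was called. SLC2A1 (GLUT1), the basal glucose carrier, had 7.87, 7.64 and 7.78 in MPA cells, against 8.06, 7.83 and 8.0 in control cells, and the groups overlapped (difference -0.20, SE 0.11, limma adjusted p = 0.661). SLC2A3 (GLUT3), a carrier of high affinity, lay under the median of all 6 arrays with group means of 3.99 in MPA cells and 3.96 in control cells, where a gene near background cannot be told from one that is not expressed. None of the 16 other glucose and lactate carriers and their chaperones passed the test, among them BSG, the chaperone of the lactate carriers, with a difference of 0.01.

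The pentose phosphate members had small differences, all 5 of them negative, with a median of -0.09 and a range of -0.29 to -0.04, and none passed the test. Transketolase (TKT), which links the pathway back to glycolysis, had 11.63, 11.64 and 11.83 in MPA cells, against 12.10, 11.96 and 11.90 in control cells (difference -0.29, SE 0.11, limma adjusted p = 0.396). It was the only one of the 5 whose groups did not overlap, which held for 7.98% of all genes in that direction. PGD, the dehydrogenase that yields NADPH in the second oxidative step, had 11.00, 10.94 and 11.30 in MPA cells, against 11.38, 11.19 and 11.45 in control cells (difference -0.26, SE 0.13). PGLS, RPIA and TALDO1, which open the lactone, isomerize ribose and move carbon units, differed by -0.04, -0.09 and -0.08. Across 18 settings, the fit above included, 0 to 1 of the 5 was positive, and the median was -0.16 to -0.07. It was -0.16 without control 2 or MPA 3. Here too, settings that changed only the test or the threshold could not change any difference. PGLS had a positive difference without control 1 (0.11), MPA 1 (0.02) or MPA 2 (0.03). Of 10 further genes of this pathway, among them H6PD and the ribose phosphate synthetases PRPS1 and PRPS2, none passed the test, and their median difference was -0.03.

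The 3 gluconeogenic members differed among themselves. PC, pyruvate carboxylase, which refills oxaloacetate in mitochondria, had 8.06, 7.98 and 8.34 in MPA cells, against 7.75, 7.29 and 7.51 in control cells. The groups did not overlap, and the difference of 0.61 (SE 0.15, 1.53-fold) did not pass limma's test (adjusted p = 0.117) but was called by SAM. PCK2, the mitochondrial phosphoenolpyruvate carboxykinase, had 8.30, 8.10 and 8.41 in MPA cells, against 8.94, 8.45 and 8.68 in control cells. All MPA values lay below the control values, with a difference of -0.42 (SE 0.15, adjusted p = 0.336). FBP1, fructose bisphosphatase, which opposes phosphofructokinase, overlapped between groups (difference -0.21, SE 0.12). None of 9 other gluconeogenesis genes passed the test.

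Further lists around the pathway, all counted in the same limma fit, differed in how many genes were called. The list for pyruvate entry into mitochondria held the carrier genes and those of pyruvate dehydrogenase and its regulators. Of its 13 genes 3 were higher and 0 lower, against 1.74% and 1.16% of all genes. The carrier genes MPC1 and MPC2 were not called (differences 0.09 and 0.15, limma adjusted p = 0.889 and 0.709). PDK4 and PDK1, kinases that inhibit pyruvate dehydrogenase, were higher by 5.58 and 1.28, and by 3.18 and 0.79 over the mean of their probe sets (adjusted p = 6.66e-06 and 0.00187). PDK4 had 9.38, 9.74 and 9.59 in MPA cells, against 4.08, 3.78 and 4.11 in control cells, the control values lying under the array medians, so that the size of its difference is that of the signals only. PDHA1, a catalytic subunit of the same dehydrogenase, had 11.22, 11.12 and 11.28 in MPA cells, against 10.59 on each control array (difference 0.62, adjusted p = 0.0156), and its call was lost without control 1, control 3 or MPA 1 (adjusted p of 0.0784 to 0.107). PDP1, a phosphatase that reverses the action of the kinases, differed by -0.70 and was not called (adjusted p = 0.123).

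None of 14 genes of the citric acid cycle and none of 14 genes of sugar side branches (hexosamine, galactose, serine and glycerol phosphate synthesis) passed the test, and the medians were 0.01 and 0.06. Of 14 other glycolytic isoenzymes, HKDC1 was lower and none was higher, against 1.16% and 1.74% of all genes. Of 14 regulators 1 was higher and 0 lower, against the same 1.74% and 1.16% of all genes. It was ARRDC4, a glucose-responsive arrestin, with a difference of 0.87 (adjusted p = 0.0143), and it kept its call only without control 2 or MPA 3 (adjusted p of 0.0571 to 0.0896 without the others). TXNIP, its relative that restrains glucose uptake, differed by 0.92, but its arrays were widely spread (adjusted p = 0.197). HIF1A, the regulated subunit of HIF, had 12.06, 12.20 and 11.98 in MPA cells, against 11.30, 11.87 and 11.46 in control cells (difference 0.53, adjusted p = 0.198). MYC, which also drives glycolytic genes, differed by -0.33 (adjusted p = 0.27).

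Of 14 genes known as HIF targets outside glycolysis, 7 were higher and 1 lower, with a median difference of 0.69, against 1.74% and 1.16% of all genes. The largest differences were those of NDRG1, a stress-induced gene (2.62), the mitophagy receptor BNIP3 (1.69), the collagen prolyl hydroxylase subunit P4HA2 (1.60) and BNIP3L (1.44). Over the mean of all probe sets P4HA2 differed by 0.97, below BNIP3L at 1.48, and the median of the list was 0.44. Of the 14 genes 12 had a positive difference, against 9 without MPA 3 and 10 after housekeeping scaling. ANKRD37, another of the 7, lost its call without control 3, without MPA 1 and with the mean of all probe sets (adjusted p = 0.0573, 0.0533 and 0.0523). CA12, a carbonic anhydrase, fell by 0.89 (-0.56 over the mean of its probe sets) and lost its call without MPA 1 (adjusted p = 0.058), VEGFA differed by -0.21, and EGLN3 and ANGPTL4 by 0.02 and 0.12, so that this list held differences of both signs. The list was drawn up with earlier results of these arrays known and is no independent evidence.

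**Figure D4:**
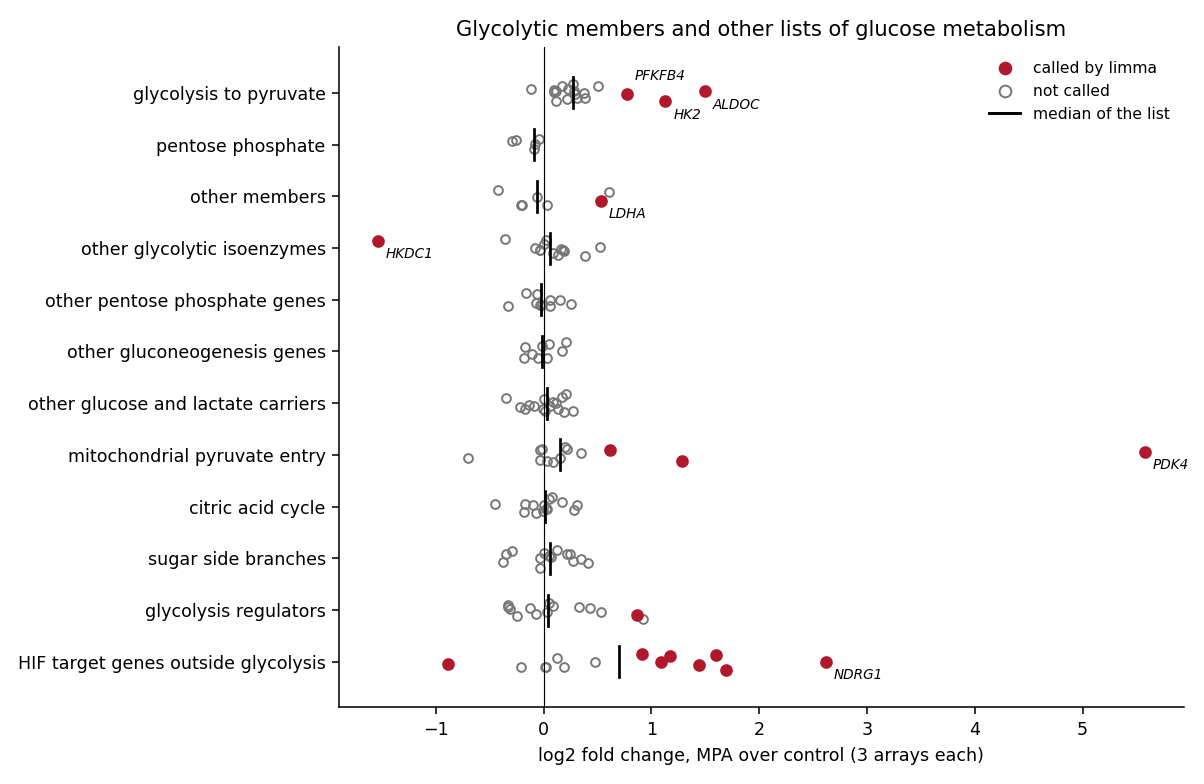
Log2 fold change of MPA over control for the members, as 18 glycolytic, 5 pentose phosphate and 7 other members, and for 9 further gene lists, 1 point per gene, red where called by limma, with a black line at the median. The glycolytic median lies at 0.27 and the pentose phosphate median at -0.09, most other lists centre near zero, and 7 of 14 HIF targets are called on the right.

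In bulk RNA of this kind a transcript present in more cells and more transcript per cell cannot be told apart, and the signals give no enzyme activity or flux.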

How the data were processed

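RNA of IKPRAB-36 cells was measured on 3 MPA and 3 control Affymetrix arrays. The authors deposited log2 signals made with RMA, which corrects background, normalizes arrays to one another and summarizes probes; none of these steps was repeated, and its software version is not given in the sources. All 6 arrays were used. Of 54675 probe sets, 62 Affymetrix controls were left out. Gene names come from the platform's annotation table, brought up to date by Entrez identifier; 41091 of the 54613 had 1 symbol, 1801 had several and 11721 none.

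The difference of MPA minus control was tested two-sided without covariates by limma 3.58.1 (eBayes, R 4.3.3), and p-values were adjusted over 54613 probe sets (Benjamini-Hochberg). Each SE is limma's moderated standard error, which is drawn toward the variance of all probe sets and can exceed that of the gene's own arrays. Probe sets with an adjusted p under 0.05 and at least 1.25-fold were called. The steps were run on simulated data whose noise was independent between probe sets and arrays. Shifts shared across an array were not covered by that run. No test was made over the members or lists alone. The alternatives were SAM (delta 0.53, all 20 relabelings, written from its description), the replicate number as a block, an intensity trend, limma's treat, other fold minimums, no dim probe sets, housekeeping scaling, quantile normalization repeated, omission of each array, other choices of probe set, and the manufacturer's GAPDH controls allowed. Per-array values were given for members called in any setting, members whose groups did not overlap, PGK1 and GAPDH. They were also given for SLC2A1, LDHB, PGD, HKDC1, PDHA1, PDK4 and HIF1A, chosen after values were seen. Of the other lists, up to 4 called genes in each direction were named, and further genes after values were seen. The members and lists were chosen with earlier results of these data known. The number of arrays limits the precision.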

Additional observations from a re-analysis of the deposited data

How the results depend on the processing

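ALDOC was called higher in each of its 17 alternatives and HK2 in 16 of 18. Changing only the fold minimum kept the same p-values and differences, so that those calls were fixed in advance. With the second brightest probe set the HK2 difference was -0.27, as the 2 dimmer HK2 probe sets run the other way; 0 of the 17 members with a second probe set were then called. With the mean of all probe sets 2 members were higher (ALDOC and LDHA). Each of these has only 1 probe set, so that averaging could not change its difference. HK2 (0.14, limma adjusted p = 0.707) and PFKFB4 (0.55, limma adjusted p = 0.0754), which have more, lost their calls. A 2-fold minimum or treat also left 2 members higher (ALDOC and HK2). With each array left out 2 to 3 members were higher and 0 lower. PGK1 was called with an intensity trend, and PC and ENO2 with SAM. The number of probe sets higher was 1313 with SAM, 357 with a 2-fold minimum and 318 with treat, against 663, and lower 868, 153 and 137, against 444; with an array left out it was 353 to 725 and 156 to 465. Among the HIF targets, 0 were lower with a 2-fold minimum and with treat, and 0 to 1 with an array left out. In the list of pyruvate carrier and dehydrogenase genes, 1 gene (PDP1) was lower with SAM. The cause was not tested. The labels do not say whether equal replicate numbers pair the arrays. The correlations of the arrays' deviations from their group means were -0.017, 0.523 and 0.326 for equal numbers. For unlike numbers they were -0.479 to 0.352, and whether the arrays are paired was not tested. With the replicate block 1208 probe sets were higher and 825 lower, and 5 members were higher (PC in addition, limma adjusted p = 0.026). The block also made 1 gene (PDP1) lower in the list of pyruvate carrier and dehydrogenase genes. Of the 30 members, 23 were called in no setting. Housekeeping scaling gave 602 probe sets higher and 508 lower and moved the median of all genes to -0.02, against 0.02. The smallest difference of a called member was 0.53, and the number of arrays limits calls of smaller ones.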
